A study of Homo sapiens with 96 samples.

Results

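DNA replication and S-phase genes were described as 42 gene rows of a count table with 60552 rows, in 6 cell lines of human acute myeloid leukaemia (AML) treated with an inhibitor of the histone demethylase LSD1, with all-trans retinoic acid (ATRA), or with both. The 42 were chosen by symbol as the genes that license and unwind replication origins, copy the strands, supply nucleotides and carry the E2F and cyclin E step into S phase, and each symbol matched 1 row. All 42 passed the filter on low counts in every line. Group means of single genes ran from 0.471 to 1078 CPM (read counts scaled to the normalised library size), and the lowest raw count of any of them in any library was 5, for E2F2.

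In a dividing cell the origin recognition complex (ORC), CDC6 and CDT1 load the MCM2-7 helicase onto DNA in G1, and geminin (GMNN) restrains CDT1 afterwards. CDC45 and the GINS complex turn the loaded helicase on, the primase and polymerases α, δ and ε copy the strands, and the PCNA clamp with its RFC loader holds the polymerases on the template. Most of these genes are transcribed under E2F factors, which the retinoblastoma protein holds back in resting cells, so their transcripts are commonly read as a sign that cells are cycling and fall when myeloid precursors leave the cycle and mature.

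The lines were HL60, Kasumi1, MOLM13, MV411, OCIAML3 and THP1. As background, the KMT2A gene is rearranged in THP1, MOLM13 and MV411, Kasumi1 has the fusion RUNX1-RUNX1T1, and OCIAML3 has mutant NPM1. Each line received 0.1% DMSO as the vehicle, 1 µM GSK2879552 (labelled 552A, taken here to be the LSD1 inhibitor arm), 100 nM ATRA, or both drugs (labelled Combo), and was harvested at day 2 or day 4. Every drug comparison within a day shares the 2 DMSO libraries of that line and day. Each of the 48 combinations had 2 libraries, 96 in all, and the labels do not say that the 2 came from separate cultures, so p-values cover no more than the library-to-library spread of a group, which could be technical alone.

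A library held 12.8 M to 41.0 M counted reads, with a median of 22.9 M. In DMSO libraries RUNX1T1 lay between 117 and 129 CPM in Kasumi1 and at or under 0.27 elsewhere, PTPRC (CD45) was at 142 to 343 CPM in all lines, and CD3E, MS4A1, HBB and COL1A1, which mark T cells, B cells, red cells and fibroblasts, stayed at or under 0.33 CPM. Among the markers of other cell types, EPCAM, found on epithelial cells, was at 113 to 118 CPM in Kasumi1, and PECAM1, found on endothelial and myeloid cells, reached 268 CPM in THP1. CYP26A1, a direct target of retinoic acid receptors, averaged 0.32 CPM at day 4 with ATRA in Kasumi1 and 3.56 to 82.6 CPM in the other lines. Libraries differed in how counts followed the GC content of genes. Set against the mean of its line, this trend ran from -0.99 to 0.39 log2 CPM per 10 percentage points of GC over the 96 libraries. An earlier analysis of these data set 5 libraries apart for it, and the 4 lowest values were among them, replicate 2 of 552A day 2 in OCIAML3 (-0.99) and THP1 (-0.84), replicate 2 of Combo day 4 in MV411 (-0.73) and replicate 1 of Combo day 4 in Kasumi1 (-0.67). The fifth, replicate 1 of 552A day 4 in MOLM13 (-0.49), did not stand apart over all lines, since 3 libraries outside the 5 had lower values (replicate 2 of DMSO day 4 in MV411, of Combo day 4 in OCIAML3 and of ATRA day 4 in HL60). This bears on the replication genes because POLD1, CDT1, TK1, E2F1 and MCM2, with 58.1 to 65.0% GC in their exons, had the widest gaps between replicates. Counts with an offset for gene GC content and length are therefore given beside those that it moves by over 1.5 times. No share of all genes is given for counts with the offset, by another method, at an unadjusted p or with libraries left out. Such counts are therefore not read as particular to the replication genes. Levels are relative to the reads of whole cultures, so fewer cycling cells and less transcript per cell cannot be told apart.

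The promoter sequences are shown because many of them hold an E2F site. The genes were chosen by symbol and not by sequence. Most are known to be transcribed under E2F factors, so the share with a site is not independent of that choice. Promoter windows of 300 bases (250 before to 50 after the start, RefSeq, GRCh38.p14) were at hand for 38 of the 42 genes. An E2F site was searched on both strands as TTTCCCGC, TTTCGCGC, TTTGCCGC or TTTGGCGC. It was found in 22 of the 38 (57.9%), against 9 of 26 other replication genes (34.6%) and 3 of 20 mitosis genes (15%). The share was 3.99% for all 27305 genes with a promoter window, whether or not in the count table. The CCAAT box was found in 22 of the 38 (57.9%), a share below that of the other replication genes (16 of 26, 61.5%) and the mitosis genes (16 of 20, 80%) and above the 39.7% of all genes. The CHR element TTTGAA, which is typical of mitotic genes, was found in 3 of the 38 (7.89%), against 15 of 20 mitosis genes (75%) and 18.2% of all genes. Stretches ending at the base before the start are given here 5′ to 3′ on the gene's strand for 10 genes that the results name or whose sites are paired, with the E2F matches in capitals. A match is a description of letters, not a measured site.

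MCM6 (chr2:135876444-135876613, minus strand): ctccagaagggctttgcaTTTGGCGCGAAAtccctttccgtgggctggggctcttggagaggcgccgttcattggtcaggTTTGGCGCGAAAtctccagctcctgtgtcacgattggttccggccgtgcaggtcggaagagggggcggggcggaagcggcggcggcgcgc
MCM7 (chr7:100101398-100101457, minus strand): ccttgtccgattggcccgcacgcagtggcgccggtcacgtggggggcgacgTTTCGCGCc
CDT1 (chr16:88803729-88803788, plus strand): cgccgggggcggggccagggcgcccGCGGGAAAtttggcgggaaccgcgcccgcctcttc
GMNN (chr6:24775313-24775412, plus strand): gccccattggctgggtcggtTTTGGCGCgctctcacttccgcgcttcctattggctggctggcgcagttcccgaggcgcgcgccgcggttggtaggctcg
POLA2 (chr11:65261892-65261961, plus strand): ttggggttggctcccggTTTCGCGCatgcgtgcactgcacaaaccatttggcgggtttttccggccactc
PCNA (chr20:5126623-5126702, minus strand): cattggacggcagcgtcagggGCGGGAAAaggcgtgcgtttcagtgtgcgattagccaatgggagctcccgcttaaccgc
DUT (chr15:48332137-48332196, plus strand): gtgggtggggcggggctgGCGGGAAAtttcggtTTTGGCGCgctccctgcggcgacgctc
UNG (chr12:109098102-109098171, plus strand): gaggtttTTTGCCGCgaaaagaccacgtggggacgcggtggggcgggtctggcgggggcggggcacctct
TYMS (chr18:657593-657652, plus strand): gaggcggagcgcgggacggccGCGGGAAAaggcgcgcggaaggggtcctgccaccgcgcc
E2F1 (chr20:33686386-33686445, minus strand): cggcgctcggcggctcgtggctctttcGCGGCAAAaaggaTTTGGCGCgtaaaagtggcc

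The MCM6 stretch holds 4 matches in 2 overlapping pairs, whose leftmost bases lie 152 and 148 and then 90 and 86 bases before the start. E2F1, itself an E2F gene, holds 2 matches, at 33 and 20 bases, and DUT holds 2, at 42 and 27 bases. MCM7 and CDT1 each hold 1 match within the last 35 bases before the start, at 9 and 35 bases. PCNA and UNG hold 1 match farther out, at 59 and 63 bases.

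Without drug, the 42 genes stood at different levels in the 6 lines. At day 4 the DMSO level differed between lines for all 42 (F test of edgeR, adjusted p under 0.05, against 87.9% of all genes tested). HL60 had the highest mean for 24 genes, THP1 for 11, Kasumi1 for 4, MV411 for 2 and OCIAML3 for 1, and MOLM13 had the lowest for 35. Per kilobase of exon, the highest mean levels over lines were those of PCNA (168 CPM per kb), MCM7 (121) and MCM3 (96.6), and the lowest were those of E2F2 (0.6), GINS3 (4.8) and CHAF1B (5.8). The clamp gene PCNA ordered the lines differently from the helicase genes. Its day 4 DMSO level was 323 ± 40.5 CPM (SD, n = 2) in HL60 and 133 ± 15.3 in THP1, its lowest line, whereas MCM3 was highest in THP1 at 668 ± 99.6 CPM and lowest in MOLM13 at 152 ± 1.03.

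The sum of the 42 genes gives the overall course in each line. In THP1 it was 6973 and 6085 CPM in the 2 DMSO libraries of day 4, 4756 and 4438 with 552A, 4326 and 4342 with ATRA and 1005 and 809 with Combo. In HL60 it was 7318 and 6561 with DMSO, 4425 and 2983 with ATRA and 6365 and 5219.5 with Combo. Combo thus left 13.9% of the mean DMSO sum in THP1 and 83.5% in HL60. The corresponding shares were 60.3% in OCIAML3, 76.95% in MV411, 81.998% in Kasumi1 and 105% in MOLM13.

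**Figure D1:**
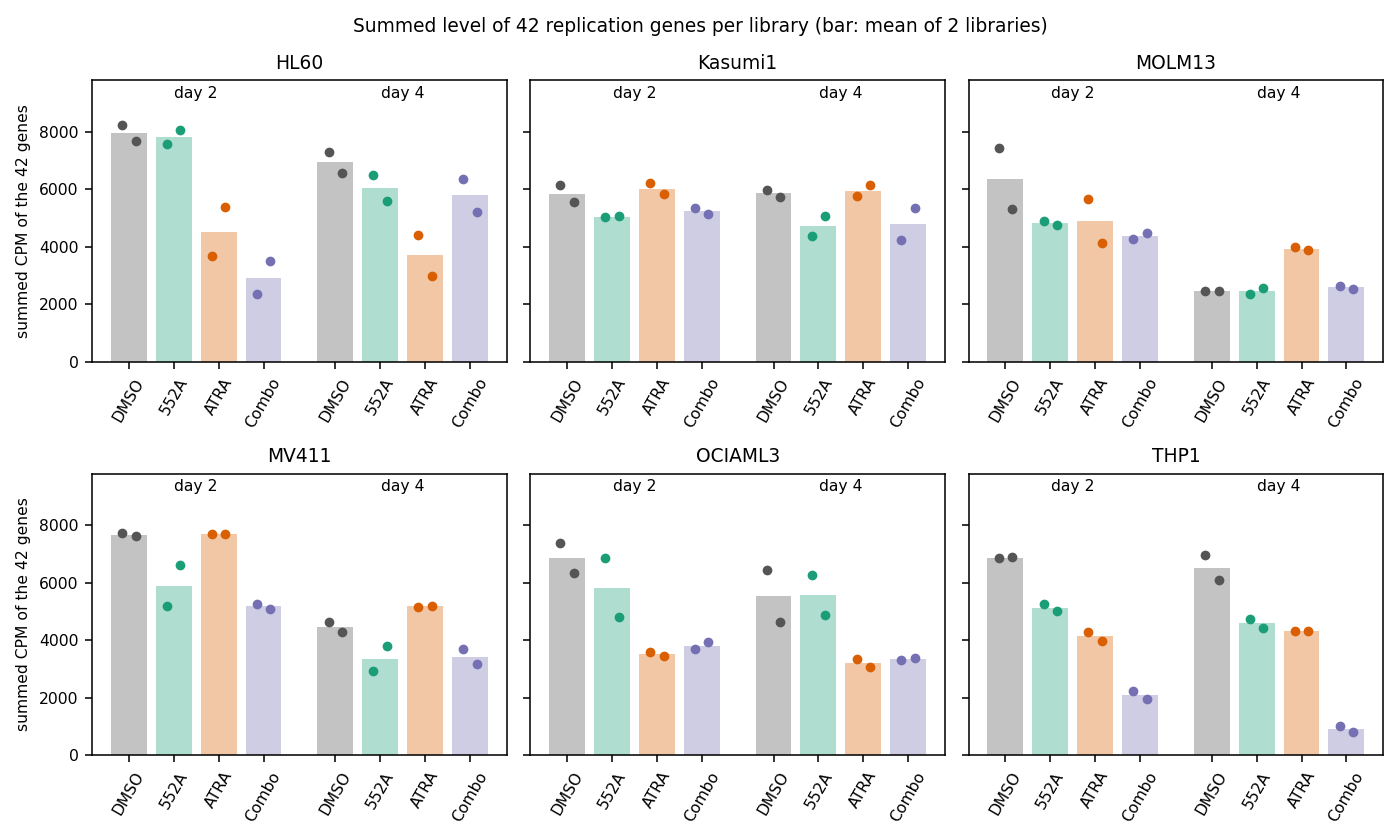
Summed CPM of the 42 replication genes (vertical axis) in each library (points) by treatment and day, with 1 panel per cell line and bars at the mean of 2 libraries. THP1 with Combo at day 4 is the lowest group, at 1005 and 809 CPM, and the DMSO sums of MOLM13 go from 7443 and 5312 at day 2 to 2478 and 2473 at day 4.

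In THP1 all 42 genes fell with Combo at day 4 (edgeR's quasi-likelihood test, adjusted p under 0.05), where 16.8% of all genes tested were called lower. The median fall was 7.01-fold (median log2 fold change -2.81, against -0.018 over all genes tested). In all 42 both Combo libraries lay below both DMSO libraries. The share of all genes separated in this way was not computed, so the separation is not read as particular to the 42. The log2 fold changes ran from -4.19 for TK1, the thymidine kinase of the salvage route, to -1.41 for GINS3. At day 2 Combo had already lowered 39 of 42 (median -1.67, against 13.5% called lower in all), all but E2F2, TK1 and POLD1. Other lines changed fewer of these genes, and the roles are therefore described with all 6 lines side by side. Values below are day 4 means ± SD of 2 libraries in CPM, DMSO first and Combo second.

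In origin licensing, CDT1, which brings the helicase to origins, was at 79.6 ± 4.99 and 5.38 ± 4.16 in THP1, 135 ± 12.8 and 18.3 ± 10.6 in HL60 and 84.5 ± 15.1 and 12.1 ± 5.67 in OCIAML3. For CDT1 the values were 48.4 ± 33.6 and 14.6 ± 11.8 in MV411, 40.96 ± 6.96 and 12.4 ± 2.72 in MOLM13 and 52.4 ± 0.818 and 41.7 ± 41.3 in Kasumi1. It fell in THP1 (log2 fold change -3.93 ± 0.74 SE, adjusted p = 0.00137) and in HL60 (-2.96 ± 0.85, adjusted p = 0.0198), and across the 6 lines taken as replicates (-2.19 ± 0.39, adjusted p = 0.00107). CDT1 was also the gene with the lowest fold change in MOLM13 (-1.74 ± 0.65, adjusted p = 0.1), MV411 (-1.69 ± 0.63, adjusted p = 0.0645) and OCIAML3 (-2.80 ± 0.87, adjusted p = 0.0518), none of which passed the test. The Kasumi1 Combo replicates, 12.5 and 70.9 CPM, lay on either side of the DMSO pair. CDC6, the other loading factor, was at 129 ± 6.76 and 14.2 ± 0.932 in THP1, 113 ± 12.4 and 128 ± 5.74 in HL60 and 85.2 ± 22.2 and 61.8 ± 15.3 in OCIAML3. For CDC6 the values were 66.2 ± 8.57 and 62.8 ± 5.04 in MV411, 37.2 ± 0.148 and 36.2 ± 3.02 in MOLM13 and 92.8 ± 1.37 and 80.3 ± 6.97 in Kasumi1. CDC6 passed the test in THP1 alone (-3.26 ± 0.16, adjusted p = 5.86e-08), and the change across lines was -0.47 ± 0.32, adjusted p = 0.293. ORC1, the subunit of the origin complex that varies most with the cycle, fell in 4 lines, by 3.32 on the log2 scale in THP1, 1.03 in HL60, 0.79 in MV411 and 0.76 in OCIAML3. GMNN fell in THP1 (-2.20 ± 0.21, adjusted p = 6.54e-06) and OCIAML3 (-0.79 ± 0.22, adjusted p = 0.0357), and ORC6 in THP1 (-3.12 ± 0.18, adjusted p = 1.72e-07).

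The 6 MCM2-7 genes, whose products form the helicase ring, fell together in THP1 (median log2 fold change -3.26). MCM2 was at 542 and 452 CPM in the THP1 DMSO libraries, 330.1 and 285 with 552A, 248 and 168 with ATRA and 51.5 and 22.9 with Combo. The Combo pair lay below all 6 other libraries, and the single-drug pairs lay between it and DMSO (log2 fold change -3.80 ± 0.49 SE, adjusted p = 8.17e-05 for Combo). In all lines, MCM2 was at 497 ± 63.8 and 37.2 ± 20.2 in THP1, 608 ± 70.7 and 349 ± 138 in HL60 and 363 ± 106 and 120.3 ± 35.1 in OCIAML3. For MCM2 the values were 179.5 ± 88.2 and 100.2 ± 52.3 in MV411, 107 ± 2.57 and 90.5 ± 14.4 in MOLM13 and 433 ± 19.3 and 265 ± 164 in Kasumi1. The MCM2 means with Combo were below DMSO in each line, and THP1 was the one line with a call. MCM3 was at 668 ± 99.6 and 85.9 ± 10.3 in THP1, 398 ± 35.1 and 377 ± 37.6 in HL60 and 291 ± 68.9 and 257 ± 14.4 in OCIAML3. For MCM3 the values were 219 ± 21.9 and 190.3 ± 17.5 in MV411, 152 ± 1.03 and 244 ± 2.22 in MOLM13 and 387 ± 20.4 and 326 ± 37.4 in Kasumi1. Against DMSO of day 4, MCM3 went down in THP1 (-3.03 ± 0.16, adjusted p = 8.14e-08) and up in MOLM13 (0.66 ± 0.18, adjusted p = 0.0247). Against DMSO of day 2, a control added after seeing the data, the MOLM13 direction turned. Every MCM2-7 log2 fold change with day 4 Combo was then negative in MOLM13 (highest -0.82). MCM6 was the helicase gene called lower in the most lines: in THP1 (-2.97 ± 0.16, adjusted p = 7.54e-08), HL60 (-0.93 ± 0.17, adjusted p = 0.00111), MV411 (-0.64 ± 0.15, adjusted p = 0.00583) and OCIAML3 (-0.81 ± 0.25, adjusted p = 0.0486). MCM4 fell in THP1, OCIAML3 and MV411 (log2 fold changes -3.49, -0.73 and -0.67), and MCM5 and MCM7 in THP1 (-2.93 and -3.54).

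Among the genes of helicase activation, CDC45 encodes the partner that joins MCM2-7 when origins fire. It was at 86.8 and 74.1 CPM in THP1 with DMSO and at 5.81 and 4.09 with Combo, 16.9-fold lower (log2 fold change -4.08 ± 0.21 SE, adjusted p = 7.33e-08). No Combo library of THP1 came near a DMSO library for CDC45. In all lines CDC45 was at 80.5 ± 8.99 and 4.95 ± 1.22 in THP1, 153 ± 14.9 and 96.3 ± 12.1 in HL60 and 84.4 ± 20.6 and 39.1 ± 1.85 in OCIAML3. For CDC45 the values were 49.3 ± 5.85 and 31.7 ± 6.03 in MV411, 27.5 ± 2.12 and 25.9 ± 2.66 in MOLM13 and 75.2 ± 2.22 and 58.9 ± 11.4 in Kasumi1. The other line with a call was OCIAML3 (-1.12 ± 0.24, adjusted p = 0.00921), and across lines the change was -0.99 ± 0.37, adjusted p = 0.0595. GINS3, a subunit of the GINS ring, broke the pattern. It was at 31.7 ± 1.92 and 12.5 ± 1.42 in THP1, 35.9 ± 0.513 and 85.7 ± 3.57 in HL60 and 24.4 ± 5.04 and 25.6 ± 0.0521 in OCIAML3. For GINS3 the values were 20.7 ± 2.101 and 26.4 ± 0.478 in MV411, 11.5 ± 0.116 and 13.8 ± 0.655 in MOLM13 and 23.5 ± 1.67 and 19.999 ± 0.0472 in Kasumi1. GINS3 fell in THP1 (-1.41 ± 0.16, adjusted p = 3e-05) and rose in HL60 (1.17 ± 0.20, adjusted p = 0.000846), where both Combo libraries lay above both DMSO libraries. GINS1, GINS2 and GINS4 were called lower in THP1 alone (log2 fold changes -2.31, -3.41 and -2.18). GINS1 and GINS2 had negative log2 fold changes in 5 lines each and GINS4 in 4. MCM10, which helps the helicase start, fell in THP1, OCIAML3 and HL60 (-3.50, -0.95 and -0.67).

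Among the polymerase and primase genes, POLD1 encodes the catalytic subunit of polymerase δ. It was at 120.1 ± 0.8299 and 25.8 ± 23.5 in THP1, 175 ± 29.7 and 81.3 ± 53.6 in HL60 and 121 ± 20.01 and 37.03 ± 22.97 in OCIAML3. For POLD1 the values were 66.02 ± 53.8 and 45.1 ± 35.9 in MV411, 67.7 ± 6.44 and 58.3 ± 21.03 in MOLM13 and 132 ± 6.33 and 75.3 ± 74.4 in Kasumi1. The SD came near the Combo mean in THP1 and Kasumi1, and POLD1 passed the test only just in THP1 (-2.28 ± 0.82, adjusted p = 0.0495). Across lines, with replicates summed, POLD1 fell (-1.08 ± 0.27, adjusted p = 0.0087). POLA2, the regulatory subunit of polymerase α, had close replicates. It was at 67.6 ± 7.42 and 19.5 ± 0.8996 in THP1, 50.1 ± 4.67 and 78.1 ± 4.38 in HL60 and 76.4 ± 8.47 and 58.7 ± 8.82 in OCIAML3. For POLA2 the values were 48.96 ± 0.0423 and 40.5 ± 3.14 in MV411, 23.8 ± 0.46997 and 32.3 ± 0.685 in MOLM13 and 60.7 ± 2.09 and 51.8 ± 7.197 in Kasumi1. POLA2 fell in THP1 (-1.87 ± 0.14, adjusted p = 1.01e-06), while in HL60 and MOLM13 the Combo means were above DMSO (0.56 ± 0.24, adjusted p = 0.101, and 0.42 ± 0.18, adjusted p = 0.166). PRIM1, the catalytic primase subunit, fell in THP1 and HL60 (log2 fold changes -2.23 and -1.21), POLE in THP1 and OCIAML3 (-2.73 and -1.20), POLE2 in THP1 and MV411 (-3.66 and -0.71), and POLA1 in THP1 (-1.60).

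The clamp and lagging-strand genes had no common direction outside THP1. PCNA was at 144 and 122 CPM in THP1 with DMSO and at 31.2 and 26.9 with Combo (log2 fold change -2.27 ± 0.16 SE, adjusted p = 6e-07). In all lines PCNA was at 133 ± 15.3 and 29.1 ± 3.11 in THP1, 323 ± 40.5 and 396 ± 62.8 in HL60 and 269 ± 66.3 and 246 ± 22.9 in OCIAML3. For PCNA the values were 301 ± 57.2 and 315 ± 35.1 in MV411, 185 ± 5.44 and 235 ± 0.9403 in MOLM13 and 269 ± 12.6 and 285 ± 7.72 in Kasumi1. Outside THP1 no PCNA change passed the test, and in HL60, Kasumi1, MOLM13 and MV411 the Combo mean was above the DMSO mean. RFC2, a subunit of the clamp loader, was at 74.7 ± 8.78 and 28.5 ± 3.71 in THP1, 113 ± 1.64 and 91.4 ± 11.2 in HL60 and 66.4 ± 12.6 and 50.2 ± 1.95 in OCIAML3. For RFC2 the values were 45.5 ± 5.94 and 86.6 ± 17.8 in MV411, 26.6 ± 2.25 and 58.1 ± 0.0267 in MOLM13 and 49.7 ± 1.01 and 45.9 ± 15.7 in Kasumi1. RFC2 fell in THP1 (-1.46 ± 0.17, adjusted p = 3.78e-05) and rose in MOLM13 (1.10 ± 0.19, adjusted p = 0.00128) and MV411 (0.97 ± 0.20, adjusted p = 0.00366). These rises are against DMSO of day 4. Against DMSO of day 2, a control added after seeing the data, no clamp or lagging-strand gene was called higher in MOLM13 or MV411. The highest log2 fold changes of these genes with day 4 Combo were then -0.15 and 0.18. LIG1, the ligase that joins Okazaki fragments, was at 92.95 ± 8.06 and 11.6 ± 5.198 in THP1, 137 ± 7.76 and 100.2 ± 27.1 in HL60 and 86.2 ± 8.78 and 41.9 ± 7.45 in OCIAML3. For LIG1 the values were 110.4 ± 47.1 and 78.7 ± 40.6 in MV411, 60.02 ± 3.83 and 48.4 ± 3.204 in MOLM13 and 133 ± 4.96 and 104 ± 56.3 in Kasumi1. Each LIG1 mean was lower with Combo, and the fall passed the test in THP1 (-3.06 ± 0.39, adjusted p = 7.89e-05) and across lines (-0.86 ± 0.28, adjusted p = 0.0313). FEN1, the flap nuclease, was called lower in THP1 alone (-3.01), as were RFC3 and RFC5 (-1.77 and -2.29). RFC4 was called lower in THP1 and HL60 (-2.08 and -0.70). RFC3 and RFC5 had negative log2 fold changes in all 6 lines.

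In nucleotide supply, RRM2 was the one gene called in opposite directions between lines with Combo at day 4. RRM2, the S-phase subunit of ribonucleotide reductase, was at 148 and 145 CPM in THP1 with DMSO and at 22.3 and 27.2 with Combo. In HL60 it was at 158 and 144 with DMSO and at 437 and 475 with Combo. The groups did not overlap in either line and moved in opposite directions (log2 fold changes -2.64 ± 0.20, adjusted p = 1.16e-06 in THP1, and 1.51 ± 0.28, adjusted p = 0.00146 in HL60). In the other 4 lines, where RRM2 had no call, it was at 159 ± 39.4 and 122 ± 24.6 in OCIAML3 and 307 ± 90.3 and 226 ± 25.7 in MV411. For RRM2 the values were 94.9 ± 7.504 and 98.7 ± 0.835 in MOLM13 and 151 ± 6.26 and 159.9 ± 8.54 in Kasumi1. TYMS, thymidylate synthase, was at 62.3 ± 7.73 and 6.59 ± 0.424 in THP1, 142 ± 8.43 and 107 ± 6.11 in HL60 and 53.7 ± 19.2 and 45.6 ± 1.898 in OCIAML3. For TYMS the values were 33.9 ± 2.65 and 30.3 ± 3.06 in MV411, 30.7 ± 3.06 and 27.2 ± 0.709 in MOLM13 and 44.7 ± 1.999 and 53.1 ± 6.76 in Kasumi1. It fell in THP1 (-3.31 ± 0.18, adjusted p = 9.74e-08) and passed the test in no other line. DUT, which removes dUTP, was at 143 ± 6.15 and 29.9 ± 1.33 in THP1, 179 ± 38.3 and 109 ± 7.48 in HL60 and 111 ± 35.97 and 89.04 ± 1.42 in OCIAML3. For DUT the values were 173 ± 28.7 and 98.8 ± 1.71 in MV411, 50.8 ± 6.47 and 43.6 ± 3.12 in MOLM13 and 145 ± 8.64 and 146 ± 36.2 in Kasumi1. DUT fell in THP1 (-2.33 ± 0.21, adjusted p = 4e-06), HL60 (-0.79 ± 0.23, adjusted p = 0.0201) and MV411 (-0.77 ± 0.23, adjusted p = 0.0272). UNG, the glycosylase that cuts uracil out of DNA, fell in THP1, HL60, MV411 and Kasumi1 (log2 fold changes -2.84, -0.79, -0.66 and -0.56). RRM1 and TK1 were called lower in THP1 alone (-2.55 and -4.19). In HL60 the TK1 means were 51.1 with DMSO and 87.8 with Combo, without a call. TYMS shares 39.1% of its exon length with ENOSF1 on the opposite strand, and the strand setting of the counting is not given in the sources used here.

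CHAF1A and CHAF1B, the large and middle subunits of the chromatin assembly factor that places histones behind the fork, fell in THP1 and OCIAML3. CHAF1A was at 124 ± 9.05 and 21.97 ± 6.82 in THP1, 131 ± 7.21 and 109 ± 20.5 in HL60 and 123 ± 13.5 and 58.4 ± 7.41 in OCIAML3. For CHAF1A the values were 86.4 ± 20.7 and 69.6 ± 21.1 in MV411, 61.2 ± 4.23 and 51.2 ± 7.16 in MOLM13 and 105 ± 1.75 and 79.1 ± 34.5 in Kasumi1. The tests gave -2.57 ± 0.24, adjusted p = 5.33e-06 in THP1 and -1.08 ± 0.33, adjusted p = 0.0483 in OCIAML3. CHAF1B was at 45.3 ± 0.113 and 6.2997 ± 0.2398 in THP1, 39.9 ± 3.78 and 29.3 ± 0.348 in HL60 and 24.04 ± 5.36 and 11.9 ± 0.573 in OCIAML3. For CHAF1B the values were 21.4 ± 0.504 and 22.3 ± 3.59 in MV411, 8.93 ± 2.95 and 10.9 ± 0.453 in MOLM13 and 38.8 ± 3.05 and 36.2 ± 8.52 in Kasumi1. The tests gave -2.92 ± 0.15, adjusted p = 7.54e-08 in THP1 and -1.02 ± 0.26, adjusted p = 0.0209 in OCIAML3.

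E2F1, the activating E2F that drives many of the other genes, was at 74.6 and 62.8 CPM in THP1 with DMSO and at 6.89 and 3.601 with Combo (log2 fold change -3.76 ± 0.47 SE, adjusted p = 6.22e-05). In all lines E2F1 was at 68.7 ± 8.33 and 5.24 ± 2.32 in THP1, 70.02 ± 0.239 and 58.96 ± 15.9 in HL60 and 42.9 ± 9.28 and 19.3 ± 4.17 in OCIAML3. For E2F1 the values were 33.5 ± 15.8 and 22.7 ± 9.93 in MV411, 17.2 ± 1.92 and 12.7 ± 0.6605 in MOLM13 and 62.3 ± 4.18 and 49.1 ± 29.1 in Kasumi1. Its mean was lower with Combo in each line, and the fall passed the test in THP1 alone (across lines -0.91 ± 0.33, adjusted p = 0.0529). E2F2, the scarcest of the 42, was at 3.24 ± 0.315 and 0.471 ± 0.235 in THP1, 8.75 ± 0.735 and 9.56 ± 4.61 in HL60 and 1.02 ± 0.646 and 0.582 ± 0.101 in OCIAML3. For E2F2 the values were 1.47 ± 0.9098 and 1.56 ± 0.874 in MV411, 1.36 ± 0.262 and 0.802 ± 0.213 in MOLM13 and 2.64 ± 0.117 and 2.23 ± 1.502 in Kasumi1. It fell in THP1 (-2.77 ± 0.58, adjusted p = 0.00278).

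The 2 cyclin E genes encode activators of CDK2 at the start of S phase. CCNE1 was at 36.2 ± 1.77 and 6.29 ± 0.614 in THP1, 31.9 ± 2.86 and 38.1 ± 4.13 in HL60 and 25.2 ± 4.8003 and 18.8 ± 2.87 in OCIAML3. For CCNE1 the values were 37.3 ± 4.1005 and 25.5 ± 6.74 in MV411, 7.97 ± 0.683 and 12.8 ± 2.02 in MOLM13 and 46.3 ± 0.919 and 38.4 ± 6.81 in Kasumi1. Its one call was the fall in THP1 (-2.59 ± 0.16, adjusted p = 2.5e-07). CCNE2 in HL60 was at 11.5 and 11.95 CPM with DMSO, 7.46 and 6.84 with 552A, 26.03 and 28.4 with ATRA and 54.8 and 71.5 with Combo. The Combo libraries lay above all other HL60 libraries of that day and the ATRA libraries above DMSO. CCNE2 rose 5.08-fold with Combo in HL60 (log2 fold change 2.34 ± 0.25 SE, adjusted p = 2.07e-05). It rose with ATRA too (1.11 ± 0.24, adjusted p = 0.00393), and it was called higher with ATRA at day 2 (0.80 ± 0.24, adjusted p = 0.0227). In the other lines CCNE2 was at 54.8 ± 8.54 and 9.29 ± 0.368 in THP1, 21.7 ± 6.61 and 27.5 ± 5.75 in OCIAML3 and 28.2 ± 6.34 and 54.7 ± 14.7 in MV411. For CCNE2 the values were 17.8 ± 0.162 and 30.3 ± 0.329 in MOLM13 and 20.05 ± 0.361 and 28.2 ± 5.81 in Kasumi1. It rose in MV411 (0.99 ± 0.22, adjusted p = 0.00484) and fell in THP1 (-2.63 ± 0.25, adjusted p = 6.56e-06). CCNE2 shares 37.0% of its exon length with INTS8 on the opposite strand. Reads from that stretch cannot be assigned to CCNE2 or INTS8 if strand was not used, and how the counting treated them is not known here.

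**Figure D2:**
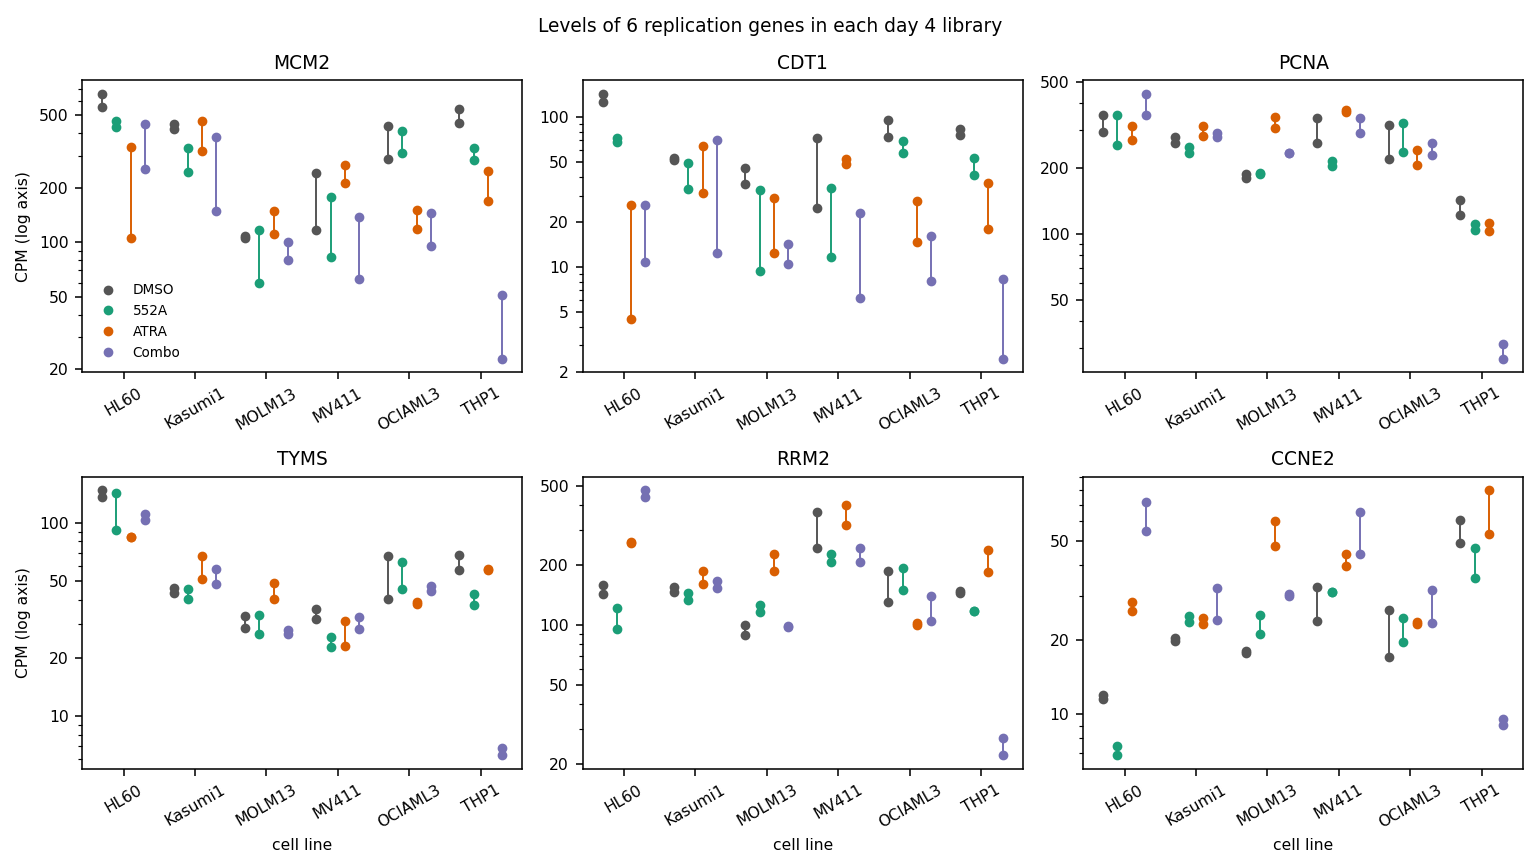
CPM on a log axis of 6 replication genes in each day 4 library (points, joined per group of 2), by cell line and treatment. The Combo points are the lowest THP1 points for each gene, while CCNE2 and RRM2 in HL60 are highest with Combo among the HL60 points.

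**Figure D3:**
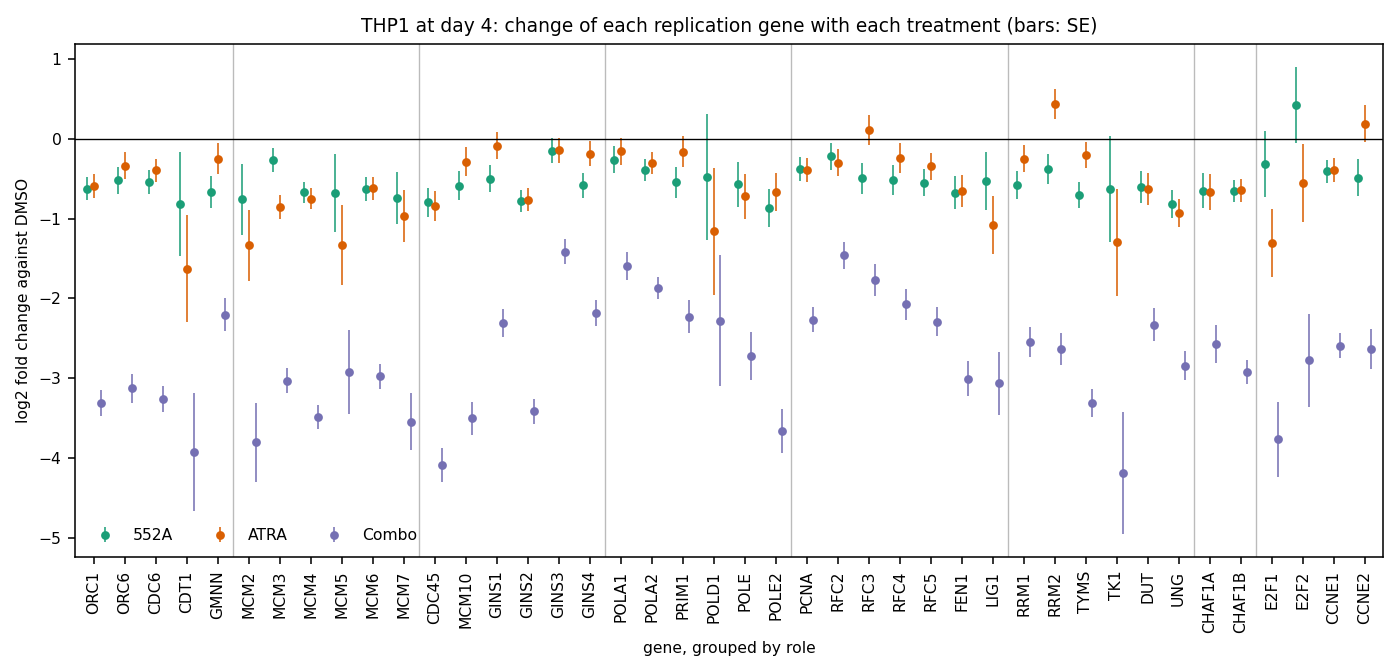
Log2 fold change against DMSO (vertical axis, bars: SE) of each of the 42 genes in THP1 at day 4 with 552A, ATRA and Combo, grouped by role. Combo values run from -4.19 (TK1) to -1.41 (GINS3), and the single-drug values lie nearer 0.

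In THP1 each drug alone moved fewer of these genes than Combo did. At day 4, 552A lowered 10 (median -0.58, 2.16% of all genes called lower) and ATRA 8 (median -0.57, 5.38%). With the GC and length offset these counts were 36 and 34. The share of all genes called with the offset is not given, so the larger counts are not read as particular to these genes. The 552A count was 23 without 552A day 2 replicate 1, 22 without 552A day 2 replicate 2, 0 without 552A day 4 replicate 1, 0 without 552A day 4 replicate 2, 0 without DMSO day 4 replicate 1 and 6 without DMSO day 4 replicate 2. The ATRA count was 20 without 552A day 2 replicate 1, 20 without 552A day 2 replicate 2, 3 without ATRA day 4 replicate 1, 5 without ATRA day 4 replicate 2, 2 without DMSO day 4 replicate 1 and 5 without DMSO day 4 replicate 2, and 14 without Combo day 4 replicate 2. At day 2, 552A lowered 3, namely CDC45, CHAF1A and CHAF1B (background 1.72%, 23 with the offset), and ATRA 21 (background 5.82%, 37 with the offset). The day 2 counts moved too, for 552A between 0 and 17 over the 14 libraries that moved it by over 1.5 times, and for ATRA to 5 without ATRA day 2 replicate 1, 3 without ATRA day 2 replicate 2, 7 without DMSO day 2 replicate 1 and 3 without DMSO day 2 replicate 2. CDC6 shows the steps: it was at 134 and 125 CPM with DMSO, 93.1 and 93.1 with 552A, 94.1 and 115 with ATRA and 13.6 and 14.9 with Combo at day 4. The Combo libraries of CDC6 lay below all others (-2.86 ± 0.16, adjusted p = 1.67e-06 against ATRA and -2.72 ± 0.16, adjusted p = 4.17e-07 against 552A).

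Combo was lower than ATRA alone for 40 of 42 genes in THP1 at day 4 (background 7.69%) and lower than 552A alone for 41 (background 12.1%). Combo went below the sum of the single-drug log2 fold changes for 29 of 42 (median difference -1.69, background 1.91%). For TYMS, for example, 552A and ATRA gave log2 fold changes of -0.70 and -0.20, Combo gave -3.31, and the difference from the sum was -2.41 ± 0.24, adjusted p = 0.000483. The Combo effect was larger at day 4 than at day 2 for 8 genes (MCM10, ORC1, CDC45, CDC6, MCM4, GINS2, RRM2 and TYMS, background 0.181%), a test of effect between days chosen after seeing the data. That count was 33 with the GC and length offset, and it moved by over 1.5 times without any 1 of the 16 libraries, between 0 and 16.

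HL60 took another course. ATRA lowered 18 of the 42 at day 2 (background 13.9% lower, 30 called with the GC and length offset) and 27 at day 4 (background 14.6%), with a median of -1.001 at day 4. CCNE2 was the 1 gene called higher on both days (backgrounds 16.5% and 16.2% higher). Combo lowered 34 at day 2 (median -1.44, background 19.1%) but 8 at day 4 (median -0.35, background 14.3%), when 3 were higher, CCNE2, RRM2 and GINS3 (background 15.2%). The 8 lower at day 4 were MCM6, RFC4, MCM10, DUT, UNG, CDT1, ORC1 and PRIM1, and with the GC and length offset 14 were lower and 6 higher. Leaving out 1 library moved the ATRA calls in either direction at day 2 from 19 to 10 without ATRA day 2 replicate 1, 29 without ATRA day 4 replicate 2 and 30 without Combo day 2 replicate 1, and at day 4 from 28 to 14 without ATRA replicate 2 or DMSO replicate 1. It moved the Combo calls of day 4 from 11 to 7 without Combo replicate 1, 5 without Combo replicate 2 and 7 without DMSO replicate 1.

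CDC6 shows the course in HL60. It was at 166 and 167 CPM with DMSO and 38.2 and 54.3 with Combo at day 2, and at 122 and 105 and 132 and 124 at day 4. The day 2 Combo libraries of CDC6 lay below both DMSO libraries (-1.86 ± 0.23, adjusted p = 4.68e-05), and those of day 4 did not (0.086 ± 0.22, adjusted p = 0.803). The Combo effect was higher at day 4 than at day 2 for 18 genes (median difference 1.15, background 2.67%, 30 with the GC and length offset), a test chosen after seeing the data. That count was 4 without Combo day 4 replicate 1, 8 without Combo day 4 replicate 2, 5 without DMSO day 2 replicate 1, 5 without DMSO day 2 replicate 2, 4 without DMSO day 4 replicate 1 and 3 without DMSO day 4 replicate 2, and up to 25 without another library. CCNE1 had the largest such difference (2.12 ± 0.43, adjusted p = 0.018). The ATRA effect differed between days for none by edgeR, with 3 at an unadjusted p under 0.05 and 1 by DESeq2, and 2 with the GC and length offset. At day 4 Combo stood above ATRA alone for 3 genes, GINS1, CCNE2 and GINS3 (background 0.738%, 14 with the GC and length offset), and beyond the sum of both drugs for 2, CCNE2 and GINS3 (background 0.0802%, 4 with the offset). Against 552A alone Combo was lower for 6 genes (background 14.4%) and higher for 4, POLA2, RRM2, CCNE2 and GINS3 (background 14.7%), with 16 calls in all with the offset, 6 without 552A day 4 replicate 1, 6 without Combo day 4 replicate 1 and 5 without Combo day 4 replicate 2. The count above ATRA was 1 without ATRA day 4 replicate 2, either Combo day 4 library or either DMSO day 4 library, and the count beyond the sum went to 0 or 1 without any of 8 libraries.

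In HL60 at day 2 the summed mitosis genes were above both DMSO libraries with each drug, and the summed replication genes were below both with ATRA and Combo but not with 552A. The 25 mitosis genes of a list that includes MKI67, CDK1 and PLK1 summed to 2972 and 3483 CPM with DMSO, 4795 and 4619.5 with 552A, 4999 and 5549 with ATRA and 4452 and 4726 with Combo. In the same libraries the 42 replication genes summed to 8242 and 7701 with DMSO, 7591 and 8076 with 552A, 3678 and 5383 with ATRA and 2346 and 3508 with Combo. At day 4 the mitosis sums were 2891 and 2487 with DMSO, 3041 and 2561 with 552A, 2795 and 2853 with ATRA and 3267 and 3851 with Combo. The day 4 ATRA sums thus lay within the DMSO pair and the Combo sums above it. Of the 25 mitosis genes 6 were higher (background 21.3%) and 1 lower (19.1%) with Combo at day 2, the first a share near the background, and 10 were higher with ATRA (16.5%). No test of the difference between the lists was run. In THP1 with Combo at day 4 both lists went the same way, with 25 of 25 mitosis genes lower (median -2.29). The share of all genes called lower in that comparison is given above with the 42.

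**Figure D4:**
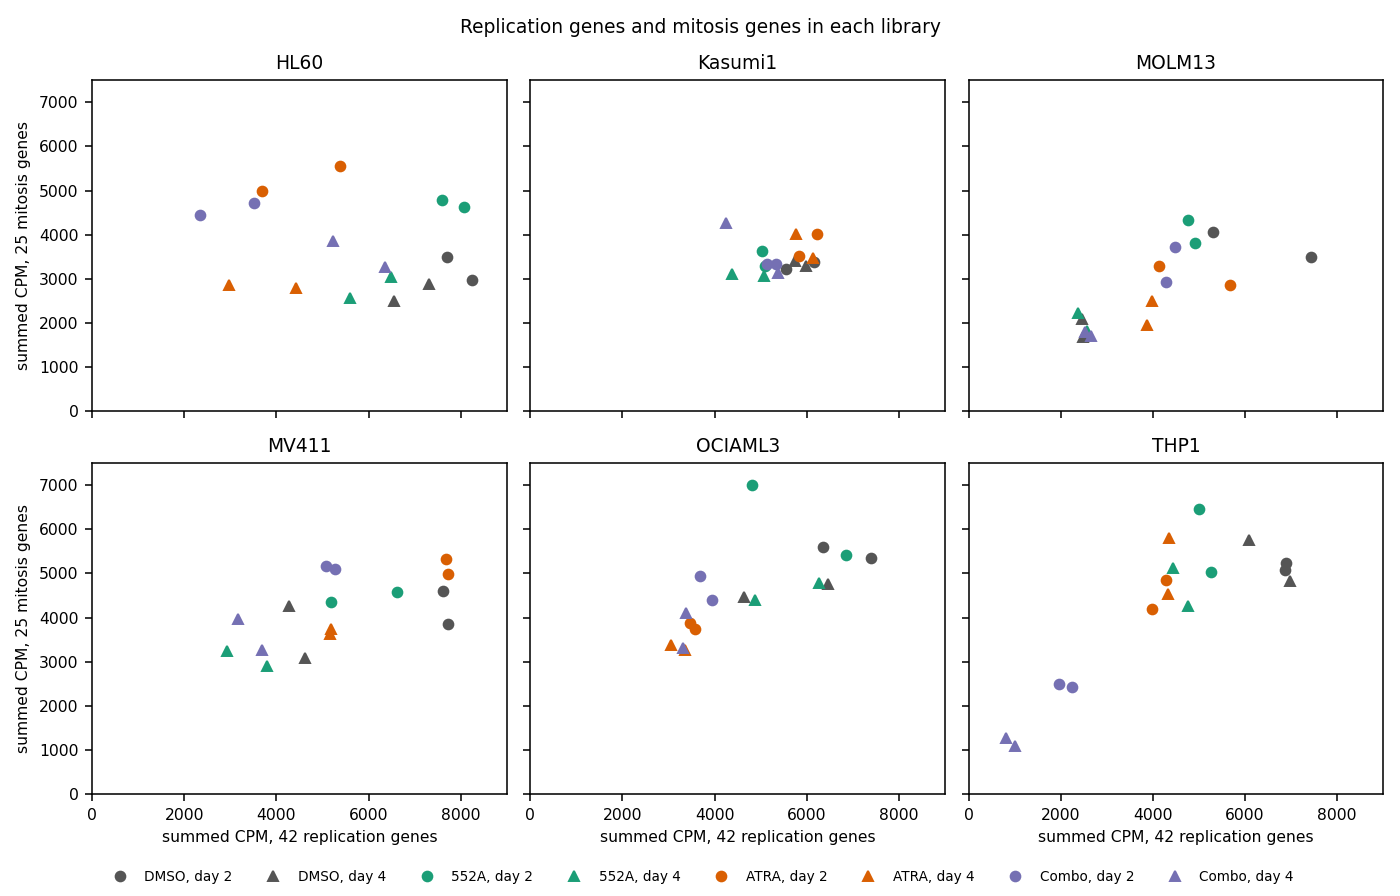
Summed CPM of the 42 replication genes (horizontal axis) against summed CPM of 25 mitosis genes (vertical axis) in each library, with 1 panel per cell line, colours for treatment and marker shapes for day. In THP1 the Combo libraries lie low on both axes, and in HL60 the day 2 Combo libraries lie to the left of DMSO but above it.

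In OCIAML3 the genes were called lower with ATRA and with Combo, and no difference between these groups was called. ATRA lowered 12 of 42 at day 2 (median -0.73, background 4.74%) and 7 at day 4 (median -0.64, background 5.78%). Combo lowered 9 at day 2 (median -0.70, background 4.35%) and 9 at day 4 (median -0.61, background 5.14%). The 4 counts were 34, 27, 29 and 24 with the GC and length offset. They rested on single libraries: the day 2 ATRA count was 30 without 552A day 2 replicate 1, 32 without 552A day 2 replicate 2, 2 without ATRA day 2 replicate 1, 3 without ATRA day 2 replicate 2, 3 without DMSO day 2 replicate 1 and 4 without DMSO day 2 replicate 2. The day 2 Combo count was 27 without 552A day 2 replicate 1, 27 without 552A day 2 replicate 2, 1 without Combo day 2 replicate 1, 3 without Combo day 2 replicate 2, 2 without DMSO day 2 replicate 1 and 3 without DMSO day 2 replicate 2. At day 4 the ATRA count was 21 without 552A day 2 replicate 1, 22 without 552A day 2 replicate 2, 1 without ATRA day 4 replicate 1 and 1 without ATRA day 4 replicate 2 and 1 without DMSO day 4 replicate 1, and the Combo count went to between 0 and 21 without any of 14 libraries. CDC45 was at 99.02 and 69.9 CPM with DMSO, 98.7 and 82.3 with 552A, 36.9 and 36.2 with ATRA and 37.8 and 40.4 with Combo at day 4. Both ATRA and both Combo libraries lay below the DMSO and 552A libraries. Combo differed from ATRA for none of the 42 by edgeR (background 0.681% lower), with 0 at an unadjusted p under 0.05 and 0 by DESeq2. Against 552A alone Combo was lower for 6 genes, MCM6, MCM10, ORC1, CDC45, CHAF1B and POLE (background 3.17%, 26 with the GC and length offset, and 0 to 20 without any of 12 libraries that moved it by over 1.5 times). For CDC45 the difference between Combo and ATRA was 0.037 ± 0.24, adjusted p = 0.963.

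Between the days edgeR called none of the 42 in DMSO libraries of day 4 against day 2 in HL60, Kasumi1, OCIAML3 or THP1 (backgrounds 0.00535%, 0%, 0% and 0% lower), with 9, 0, 4 and 0 at an unadjusted p under 0.05 and 0, 0, 0 and 0 by DESeq2, nor across lines (background 0%, 5 and 0). MOLM13 changed without drug. In its DMSO libraries 30 of the 42 genes were lower at day 4 than at day 2 (median -1.22, background 2.03%). The sum went from 7443 and 5312 CPM to 2478 and 2473. TYMS, for instance, was at 61.9 and 62.6 at day 2 and 32.8 and 28.5 at day 4 (-1.01 ± 0.17, adjusted p = 0.0128). The count was 0 without DMSO day 2 replicate 1, 0 and 3 without either DMSO library of day 4, and up to 37 without another library. Against this low day 4 control, ATRA raised 15 genes (median 0.61, background 5% higher) and Combo 2, MCM3 and RFC2 (background 8.11%, with 4 higher and 6 lower under the GC and length offset). Against the DMSO libraries of day 2, a control added after seeing the data, the same day 4 libraries had 7 genes lower with ATRA (background 2.97%) and 37 lower with Combo (background 10.8%). The direction of the ATRA and Combo changes in MOLM13 at day 4 thus depended on the control day. The count of genes raised by ATRA was 3 without ATRA day 4 replicate 1, 7 without ATRA day 4 replicate 2, 8 without Combo day 4 replicate 1, 8 without Combo day 4 replicate 2, 3 without DMSO day 4 replicate 1 and 4 without DMSO day 4 replicate 2. Within day 4, Combo was lower than ATRA for 10 genes (median -0.64, background 2.1%, 20 with the GC and length offset), a comparison of 2 drug groups that uses no control. That count fell by over 1.5 times without any 1 of the ATRA, Combo or DMSO libraries of day 4. The DMSO libraries act there through the filter, the scaling and the shared estimate of spread, not as a control. Against 552A alone Combo was higher for RFC2 (1.08 ± 0.19, adjusted p = 0.0021, background 5.29%, 3 calls with the offset). At day 2 Combo lowered 2, POLE and ORC1 (background 2.44%, 28 with the GC and length offset, and 0 to 4 when 1 library was left out, over 1.5 times apart for 14 of the 16).

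In MV411 the DMSO libraries had sums of 7731 and 7619 CPM at day 2 and 4627 and 4284 at day 4. No gene of the 42 was called between the DMSO days by edgeR (background 0% lower), though 32 had an unadjusted p under 0.05 and the calls were 16 by DESeq2 and 26 with the GC and length offset. Combo lowered 8 genes at day 2 (background 8.72%) and raised CCNE2 (background 9.65%), 30 calls with the GC and length offset. These calls were 0 without Combo day 2 replicate 1, 0 without Combo day 2 replicate 2, 1 without DMSO day 2 replicate 1 and 1 without DMSO day 2 replicate 2, and 5 without ATRA day 2 replicate 1. At day 4 Combo lowered 6 genes, MCM4, MCM6, DUT, UNG, ORC1 and POLE2 (background 13.6%), a share of the 42 near the background, and raised RFC2 and CCNE2 (background 12.7%), 14 calls with the offset and 4 without DMSO day 4 replicate 1. At day 2 ATRA alone changed none in MV411 or MOLM13 by edgeR (backgrounds 3.51% and 0.998% lower), with 4 and 6 at an unadjusted p under 0.05 and 0 and 0 by DESeq2, and 3 and 3 with the offset. ATRA raised 2, RFC2 and RFC5, at day 4 (background 11.9%, 13 with the offset, and 1 to 10 when 1 of the 8 day 4 libraries was left out, the 10 without DMSO replicate 1). The inhibitor 552A lowered MCM6 (-0.78 ± 0.15, adjusted p = 0.00799, background 1.7%, 13 calls with the offset), a call that was lost without either 552A library of day 4 or DMSO day 4 replicate 1. Combo was lower than ATRA for 7 genes (background 8.2%, 20 with the offset, and 1 to 19 when 1 library was left out, over 1.5 times apart for 12 of the 16). Against 552A alone Combo was higher for RFC2, PCNA and CCNE2 (background 6.42%), with 0 genes without 552A replicate 1, 1 without 552A replicate 2 and 1 without Combo replicate 2. Against day 2 DMSO, 34 genes were lower with day 4 Combo (background 19%) and 11 with day 4 ATRA (background 11.5%).

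Kasumi1 had the fewest calls of the 6 lines. UNG was at 125 and 126 CPM with DMSO, 80.1 and 98.4 with 552A, 132 and 131 with ATRA and 83.6 and 91.9 with Combo at day 4. The 552A and Combo libraries of UNG lay below the DMSO and ATRA libraries. UNG was the one gene of the 42 called lower with 552A (-0.52 ± 0.13, adjusted p = 0.041, background 0.867%) and with Combo (-0.56 ± 0.13, adjusted p = 0.0178, background 3.36%). Combo was lower than ATRA for UNG and MCM4 (background 1.89%). These 3 counts were 18, 9 and 16 with the GC and length offset. The Combo count at day 4 was 0 without Combo day 4 replicate 1, 22 without Combo day 4 replicate 2, 0 without DMSO day 4 replicate 1 and 0 without DMSO day 4 replicate 2, and leaving out any 1 library put the 552A count at 0 to 4 and the count of Combo against ATRA at 0 to 22. At day 2 Combo changed none by edgeR (background 0.656% lower), with 10 at an unadjusted p under 0.05 and 1 by DESeq2, and 7 with the offset. ATRA changed none of the 42 by edgeR on either day (backgrounds 0% and 0.0167% lower), with 0 and 2 at an unadjusted p under 0.05 and 0 and 0 by DESeq2.

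Taking the 6 lines as replicates, Combo lowered 34 of 42 at day 2 (median -0.83, background 12%) and 10 at day 4 (median -0.62, background 10.6%), MCM2, MCM6, MCM7, CHAF1A, LIG1, DUT, CDT1, ORC1, POLD1 and POLE. Without THP1 the day 4 count was 3, without OCIAML3 2, and without the 5 libraries set apart 4, whereas the day 2 count stayed between 27 and 36 when any 1 line was left out. ATRA lowered 8 at day 2 (E2F1, MCM2, MCM5, MCM7, LIG1, TK1, CDT1 and POLD1, background 4.4%), and 0 with the GC and length offset or without THP1 or OCIAML3. These 8 are among the genes of highest GC content, at 56.4% (LIG1) to 65.0% (POLD1), where the median of the 42 was 48.9%. The part of GC content in these calls was not tested beyond the offset. At day 4 ATRA lowered none by edgeR (background 2.99%), with 1 at an unadjusted p under 0.05 and 1 by DESeq2. The inhibitor alone, 552A, lowered none on either day by edgeR (backgrounds 0.381% and 0.0124%), with 10 and 0 at an unadjusted p under 0.05 and 2 and 0 by DESeq2. The LSD1 inhibitor alone lowered none of the 42 at day 4 in HL60, MOLM13 or OCIAML3 by edgeR (backgrounds 0.139%, 0.314% and 0.803%), with 1, 1 and 1 at an unadjusted p under 0.05 and 0, 0 and 0 by DESeq2, and 0, 1 and 0 with the GC and length offset. At day 2 it changed none in HL60, Kasumi1, MOLM13, MV411 or OCIAML3 by edgeR (backgrounds 0.0695%, 0.3%, 0.256%, 0.383% and 0.427% lower), with 1, 7, 6, 9 and 1 at an unadjusted p under 0.05 and 0, 0, 0, 0 and 0 by DESeq2. With the GC and length offset the day 2 counts were 0, 9, 2, 6 and 0 in these lines, 0, 16, 4, 13 and 0 with the replicate block as well, and in OCIAML3 19 were called without 552A day 2 replicate 1. CDT1 was the one gene called lower with Combo than with 552A across lines (-1.46 ± 0.38, adjusted p = 0.0268, background 3.72%), and no gene was with the GC and length offset or without the 5 libraries set apart. Across lines Combo differed from ATRA for none by edgeR (background 0.0207%, 3 at an unadjusted p under 0.05, 0 by DESeq2) and from the sum of both drugs for none (background 0%, 0 and 0), although the median difference from ATRA was -0.44.

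The effect of treatment differed between lines for most of the genes. The F test of line by treatment at day 4 passed for 39 of 42 with Combo (background 33.6%), all but E2F2, POLD1 and CDT1, and for 33 with ATRA (background 31.4%). With 552A it passed for UNG alone (5.69%, 13 with the GC and length offset). E2F2, POLD1 and CDT1 are among the genes with the widest replicate gaps or lowest counts, and a p above the threshold does not show that they changed alike in the lines. CDT1 had the same sign in each of the 6 lines.

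**Figure D5:**
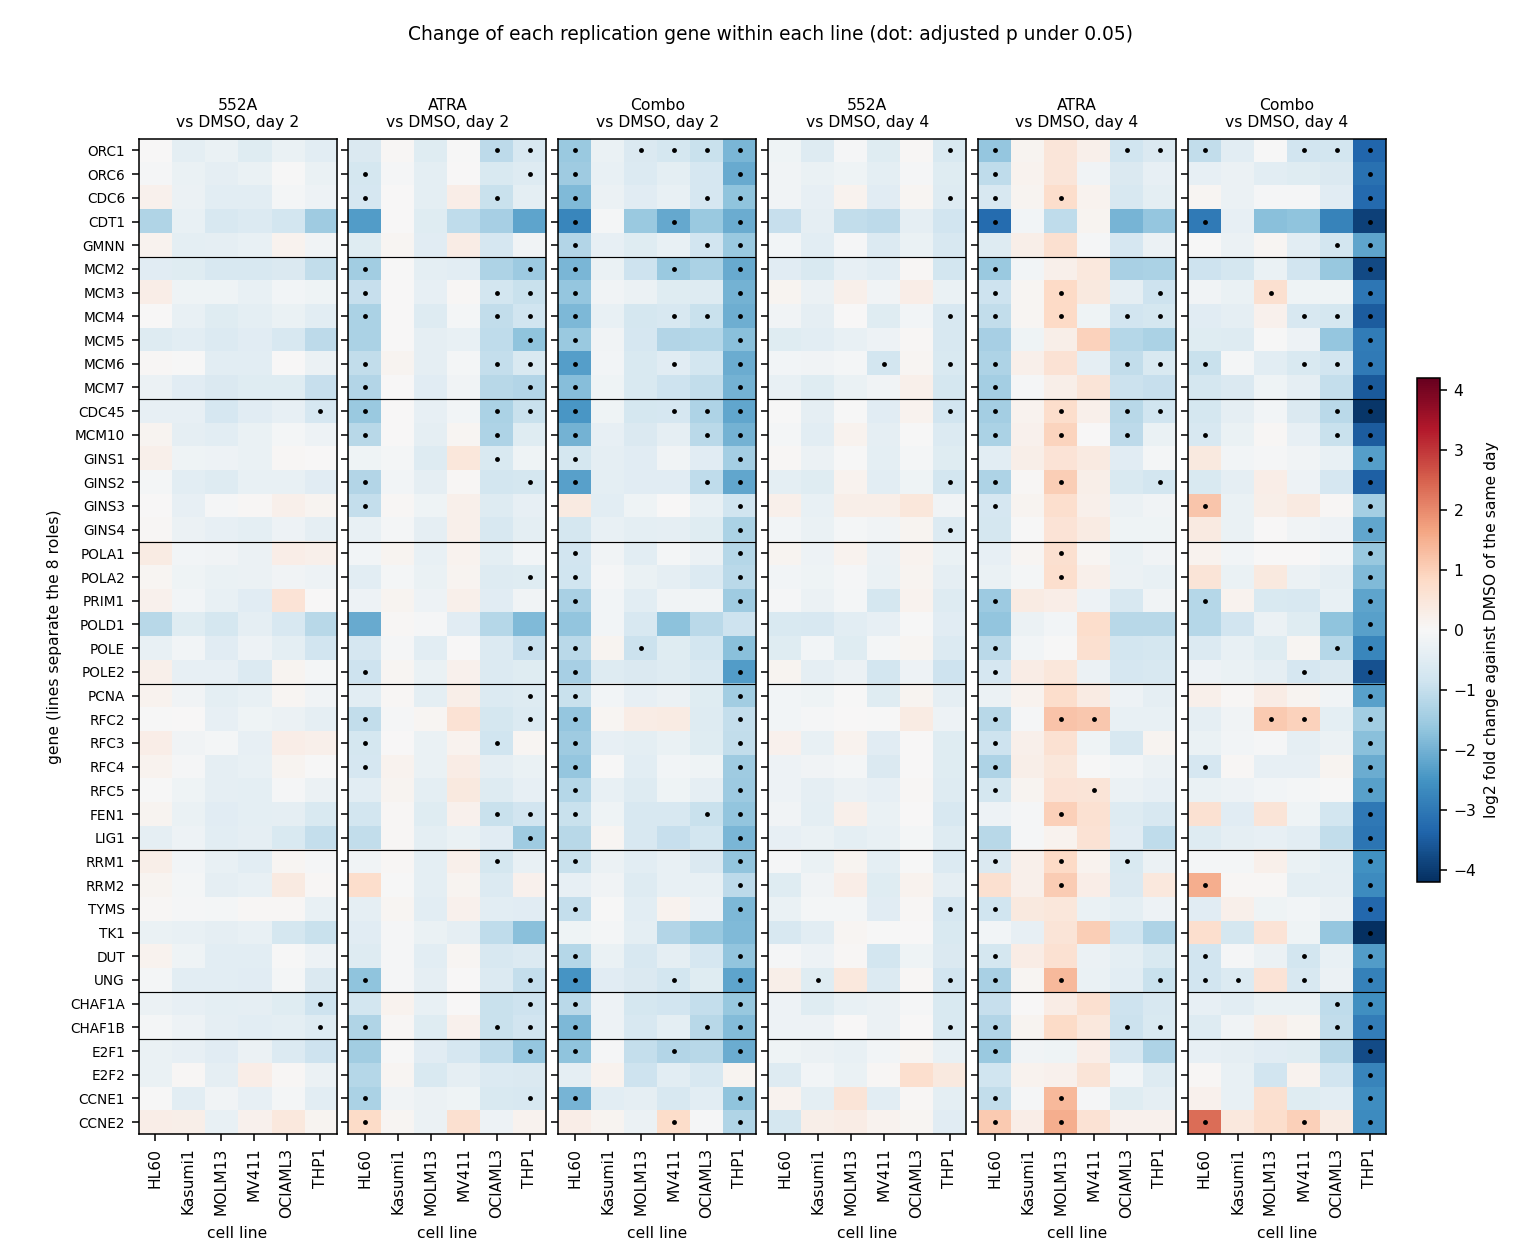
Log2 fold change against DMSO of the same day (colour) for each of the 42 genes (rows, separated by role) in each line (columns), in 1 panel per treatment and day, with dots at an adjusted p under 0.05. The THP1 column is dotted for all 42 genes with Combo at day 4, and the MOLM13 column holds higher values for most genes with ATRA at day 4.

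Related genes outside the 42 followed them in THP1 with exceptions. Of 35 other replication genes, such as the ORC2 to ORC5 subunits, the RPA proteins and TOPBP1, 28 were lower with Combo at day 4 (median -1.46), and of 27 other S-phase and E2F network genes 24 were lower and 2 higher. Of 13 replication-dependent histone genes tested, 12 were lower, and among 5 tested inhibitors of cyclin-dependent kinases CDKN1A (p21), named here after its value was seen, was the one called higher (2.05 ± 0.25 SE, adjusted p = 5.24e-05). The share of all genes called lower in this comparison is given above with the 42. None is given for genes called higher, so the counts of higher genes are not read as a trait of the lists. Across lines at day 4, SAMHD1, which degrades dNTPs, rose with Combo (2.43 ± 0.47 SE, adjusted p = 0.00179), as did RB1 (0.93 ± 0.15 SE, adjusted p = 0.000666), while POLD2, the partner of POLD1, fell (-1.44 ± 0.21 SE, adjusted p = 0.000333) and PLK1, a mitotic kinase, fell too (-1.10 ± 0.29 SE, adjusted p = 0.0113). These genes were named for the smallest p in their lists. Of the other replication, S-phase and mitosis lists, the shares called lower across lines were near or below that of all genes. The counts are given under Other observations.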

How the data were processed

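RNA was sequenced from 96 libraries of 6 AML lines, 2 libraries for each of 48 combinations of line, treatment and day. The deposited table holds whole-number counts of reads per gene, not normalised, for 60552 Ensembl rows. The authors used HTSeq 0.6.0, STAR 2.4.2a and Trimmomatic 0.36 on GRCh38, per the submitters' processing notes. The strand setting and annotation release are not given in the sources used here. Symbols, exon lengths and overlaps came from GENCODE 29, which matched 56994 rows. The 3558 unmatched rows held 0.0417% of all counts. They stayed in the table that was filtered and tested, with no GC and length offset of their own.

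In R 4.3.3, genes were filtered with filterByExpr, scaled by TMM and tested in edgeR 4.0.16 by quasi-likelihood F tests, with Benjamini-Hochberg adjustment over all genes tested and a threshold of 0.05. Each line was a fit of 16 libraries in 8 groups with 8 residual degrees of freedom. For the lines as replicates, the 2 libraries of each group were added together, and the resulting 24 sums per day (48 over both days) were fitted with the line as a block. F tests of line by treatment used the 48 day 4 libraries, and levels by line the DMSO libraries. The SE is the log2 fold change divided by the square root of F. CPM are scaled by TMM library sizes. The count models were tested on simulated data with known changes. DESeq2 1.42.0, limma 3.58.1, RLE scaling, no filter, an offset by splines of gene GC content and length, the replicate block and left-out libraries or lines were the alternatives.

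Total counts were 12.8 M to 41.0 M per library. No 2 replicates agreed within sampling noise (smallest chi-square per degree of freedom 8.78). The 42 genes, the roles and the other lists were chosen with earlier results of these data known, and no pattern is given as independent support. In each role the genes with the smallest and the largest p for Combo across lines at day 4 are described in full, together with E2F1, MCM2, PCNA, RRM2, TYMS, CDC6, CCNE1 and genes called against the majority. From each other list at most 2 genes were named by the same p, and CDKN1A was added after its value was seen. No columns were left unmapped.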

Additional observations from a re-analysis of the deposited data

Results flagged for a closer look

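The effect of treatment differed between the 6 lines at day 4 for many of the 42 genes by the F test of line by treatment. The counts were 39 for Combo, 33 for ATRA and 1 for 552A, the last being UNG.

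For Combo, the described genes that passed were MCM3 (adjusted p = 1.31e-11), CDC6 (3.00e-11), RRM2 (6.51e-11), CCNE2 (7.08e-11), CDC45 (7.81e-10), TYMS (3.72e-09), POLA2 (4.49e-09), PCNA (7.62e-09), CHAF1B (1.55e-08), CCNE1 (2.93e-08), GINS3 (1.73e-07), RFC2 (3.66e-07), DUT (0.000275), CHAF1A (0.000413), E2F1 (0.0012), MCM2 (0.00284) and LIG1 (0.00355). In each of these genes the THP1 log2 fold change was the lowest of the 6 lines. The highest belonged to HL60 for RRM2, CCNE2 and GINS3 and to MOLM13 for MCM3 and RFC2.

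For ATRA, they were RFC2 (adjusted p = 9.66e-07), MCM3 (1.96e-06), CDC45 (6.37e-06), CCNE1 (9.9e-06), CHAF1B (1.56e-05), CDC6 (0.000138), RRM2 (0.000346), POLA2 (0.00235), GINS3 (0.00236), CCNE2 (0.00314), PCNA (0.00477), TYMS (0.00864), CHAF1A (0.0111) and DUT (0.0331). MOLM13 is the line in which ATRA raised several of these, against DMSO libraries that were lower at day 4 than at day 2, and the part of that control change in the ATRA result was not tested beyond the exchange of control days given in the report.

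Within a line, the Combo effect differed between day 4 and day 2 for 18 genes in HL60, all higher at day 4, and for 8 in THP1, all lower at day 4. Both tests were chosen after seeing the data.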

How the results depend on the processing

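The fall of all 42 genes with Combo at day 4 in THP1 held in 41 or 42 genes under each alternative run and without any 1 library, and its day 2 count, the counts against each single drug and the count beyond the sum stayed within 1.5 times too. Many other counts moved, and the causes were not tested. With 2 libraries a group, leaving 1 out leaves a lone library that is assumed to vary like the other groups. The lowest count of any gene but E2F2 in a single library was 37 reads. Counting error was not set against the replicate spread gene by gene. Each count below is of genes called in either direction. The share of all genes called under the same alternative is not given, so a moved count cannot be read as particular to the 42.

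With the size factors of DESeq2 in edgeR (RLE), 2 of 89 counts moved by over 1.5 times or turned direction. Kasumi1 counts with RLE went from 1 to 0 for 552A day 4 and from 2 to 1 for Combo against ATRA. With no filter on low counts, 28 of 89 counts moved by over 1.5 times or turned direction. HL60 counts with no filter went from 0 to 2 for 552A day 2, from 3 to 8 for Combo against ATRA, from 0 to 1 for DMSO between days, from 0 to 1 for ATRA effect between days and from 2 to 7 for Combo beyond the sum. Kasumi1 counts with no filter went from 1 to 2 for 552A day 4 and from 1 to 6 for Combo day 4. MOLM13 counts with no filter went from 2 to 5 for Combo day 2, from 0 to 1 for 552A day 4, from 0 to 8 for ATRA effect between days and from 0 to 1 for Combo beyond the sum. MV411 counts with no filter went from 0 to 1 for ATRA day 2, from 9 to 15 for Combo day 2, from 1 to 3 for 552A day 4, from 2 to 9 for ATRA day 4, from 7 to 16 for Combo against ATRA, from 0 to 22 for DMSO between days, from 0 to 5 for ATRA effect between days, from 0 to 2 for Combo effect between days and from 0 to 2 for Combo beyond the sum. OCIAML3 counts with no filter went from 12 to 23 for ATRA day 2, from 9 to 24 for Combo day 2, from 7 to 15 for ATRA day 4, from 9 to 18 for Combo day 4 and from 6 to 19 for Combo against 552A. THP1 counts with no filter went from 3 to 12 for 552A day 2, from 8 to 15 for ATRA day 4 and from 8 to 18 for Combo effect between days. With the GC and length offset, 44 of 89 counts moved by over 1.5 times or turned direction. HL60 counts with the offset went from 19 to 30 for ATRA day 2, from 11 to 20 for Combo day 4, from 3 to 14 for Combo against ATRA, from 10 to 16 for Combo against 552A, from 0 to 2 for ATRA effect between days, from 18 to 30 for Combo effect between days and from 2 to 4 for Combo beyond the sum. Kasumi1 counts with the offset went from 0 to 9 for 552A day 2, from 0 to 7 for Combo day 2, from 1 to 18 for 552A day 4, from 1 to 9 for Combo day 4 and from 2 to 16 for Combo against ATRA. MOLM13 counts with the offset went from 0 to 2 for 552A day 2, from 0 to 3 for ATRA day 2, from 2 to 28 for Combo day 2, from 0 to 1 for 552A day 4, from 2 to 10 for Combo day 4, from 10 to 20 for Combo against ATRA, from 1 to 3 for Combo against 552A, from 0 to 12 for ATRA effect between days, from 0 to 1 for Combo effect between days and from 0 to 1 for Combo beyond the sum. MV411 counts with the offset went from 0 to 6 for 552A day 2, from 0 to 3 for ATRA day 2, from 9 to 30 for Combo day 2, from 1 to 13 for 552A day 4, from 2 to 13 for ATRA day 4, from 8 to 14 for Combo day 4, from 7 to 20 for Combo against ATRA, from 0 to 26 for DMSO between days and from 0 to 1 for Combo effect between days. OCIAML3 counts with the offset went from 12 to 34 for ATRA day 2, from 9 to 29 for Combo day 2, from 7 to 27 for ATRA day 4, from 9 to 24 for Combo day 4 and from 6 to 26 for Combo against 552A. THP1 counts with the offset went from 3 to 23 for 552A day 2, from 21 to 37 for ATRA day 2, from 10 to 36 for 552A day 4, from 8 to 34 for ATRA day 4 and from 8 to 33 for Combo effect between days. Across-line counts with the offset went from 8 to 0 for ATRA day 2 and from 1 to 0 for Combo against 552A. F-test count with the offset went from 1 to 13 for 552A by line. By DESeq2, 17 of 85 counts moved by over 1.5 times or turned direction. HL60 counts by DESeq2 went from 3 to 7 for Combo against ATRA and from 0 to 1 for ATRA effect between days. Kasumi1 counts by DESeq2 went from 0 to 1 for Combo day 2 and from 2 to 6 for Combo against ATRA. MOLM13 counts by DESeq2 went from 2 to 4 for Combo day 2, from 0 to 10 for ATRA effect between days and from 0 to 1 for Combo beyond the sum. MV411 counts by DESeq2 went from 7 to 13 for Combo against ATRA and from 0 to 16 for DMSO between days. OCIAML3 counts by DESeq2 went from 12 to 19 for ATRA day 2 and from 6 to 10 for Combo against 552A. THP1 counts by DESeq2 went from 3 to 10 for 552A day 2, from 10 to 17 for 552A day 4, from 8 to 14 for ATRA day 4 and from 8 to 18 for Combo effect between days. Across-line counts by DESeq2 went from 0 to 2 for 552A day 2 and from 0 to 1 for ATRA day 4. With the replicate number as a block, 7 of 76 counts moved by over 1.5 times or turned direction. Kasumi1 counts with blocked replicates went from 0 to 1 for Combo day 2, from 1 to 2 for 552A day 4 and from 2 to 5 for Combo against ATRA. MOLM13 count with blocked replicates went from 2 to 1 for Combo day 2. MV411 count with blocked replicates went from 1 to 3 for 552A day 4. THP1 counts with blocked replicates went from 3 to 12 for 552A day 2 and from 8 to 18 for ATRA day 4. With the replicate block and the GC and length offset together, 47 of 76 counts moved by over 1.5 times or turned direction. HL60 counts with both together went from 19 to 32 for ATRA day 2, from 0 to 1 for 552A day 4, from 11 to 22 for Combo day 4, from 3 to 18 for Combo against ATRA, from 10 to 17 for Combo against 552A, from 0 to 1 for DMSO between days, from 0 to 3 for ATRA effect between days, from 18 to 31 for Combo effect between days and from 2 to 8 for Combo beyond the sum. Kasumi1 counts with both together went from 0 to 16 for 552A day 2, from 0 to 15 for Combo day 2, from 1 to 24 for 552A day 4, from 1 to 17 for Combo day 4 and from 2 to 22 for Combo against ATRA. MOLM13 counts with both together went from 0 to 4 for 552A day 2, from 0 to 6 for ATRA day 2, from 2 to 32 for Combo day 2, from 0 to 1 for 552A day 4, from 15 to 24 for ATRA day 4, from 2 to 15 for Combo day 4, from 10 to 28 for Combo against ATRA, from 1 to 4 for Combo against 552A, from 0 to 24 for ATRA effect between days, from 0 to 4 for Combo effect between days and from 0 to 4 for Combo beyond the sum. MV411 counts with both together went from 0 to 13 for 552A day 2, from 0 to 4 for ATRA day 2, from 9 to 32 for Combo day 2, from 1 to 22 for 552A day 4, from 2 to 15 for ATRA day 4, from 8 to 19 for Combo day 4, from 7 to 27 for Combo against ATRA, from 3 to 7 for Combo against 552A, from 0 to 32 for DMSO between days, from 0 to 1 for Combo effect between days and from 0 to 1 for Combo beyond the sum. OCIAML3 counts with both together went from 12 to 36 for ATRA day 2, from 9 to 33 for Combo day 2, from 7 to 30 for ATRA day 4, from 9 to 28 for Combo day 4 and from 6 to 28 for Combo against 552A. THP1 counts with both together went from 3 to 27 for 552A day 2, from 21 to 38 for ATRA day 2, from 10 to 38 for 552A day 4, from 8 to 37 for ATRA day 4 and from 8 to 38 for Combo effect between days. F-test count with both together went from 1 to 27 for 552A by line. Without the 5 libraries set apart for their GC trend, 20 of 73 counts moved by over 1.5 times or turned direction. Kasumi1 counts without the 5 libraries went from 0 to 1 for 552A day 2, from 0 to 1 for Combo day 2, from 1 to 4 for 552A day 4, from 1 to 0 for Combo day 4 and from 2 to 1 for Combo against ATRA. MV411 counts without the 5 libraries went from 0 to 1 for ATRA day 2, from 2 to 5 for ATRA day 4, from 7 to 1 for Combo against ATRA and from 3 to 1 for Combo against 552A. OCIAML3 counts without the 5 libraries went from 12 to 32 for ATRA day 2, from 9 to 27 for Combo day 2, from 7 to 22 for ATRA day 4, from 9 to 21 for Combo day 4 and from 6 to 19 for Combo against 552A. THP1 counts without the 5 libraries went from 3 to 0 for 552A day 2, from 10 to 22 for 552A day 4, from 8 to 20 for ATRA day 4 and from 8 to 16 for Combo effect between days. Across-line counts without the 5 libraries went from 10 to 4 for Combo day 4 and from 1 to 0 for Combo against 552A. By limma on mean log2 CPM, 1 of 13 counts moved by over 1.5 times or turned direction. Across-line count by limma went from 0 to 2 for 552A day 2. With day 2 DMSO as the control, added after seeing the data, 6 of 6 counts moved by over 1.5 times or turned direction. MOLM13 counts with that control went from 0 to 34 for 552A day 4, from 15 to 7 for ATRA day 4 and from 2 to 37 for Combo day 4. MV411 counts with that control went from 1 to 34 for 552A day 4, from 2 to 11 for ATRA day 4 and from 8 to 35 for Combo day 4. The labels do not say that a replicate number marks a shared culture or day, so the block was kept as an alternative. Same-numbered deviations of a drug group and its DMSO group more often went together than apart: over 36 such pairs, which share DMSO groups, their correlation ran from -0.80 to 0.90, above 0.1 in 28 and below -0.1 in 4.

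Leaving out 1 library at a time gave these ranges where any value moved by over 1.5 times. HL60 counts ran from 10 to 30 for ATRA day 2, 14 to 31 for ATRA day 4, 5 to 12 for Combo day 4, 1 to 4 for Combo against ATRA, 5 to 13 for Combo against 552A, 0 to 1 for ATRA effect between days, 3 to 25 for Combo effect between days and 0 to 2 for Combo beyond the sum. Kasumi1 counts ran from 0 to 1 for 552A day 2, 0 to 1 for Combo day 2, 0 to 4 for 552A day 4, 0 to 22 for Combo day 4, 0 to 22 for Combo against ATRA, 0 to 9 for Combo against 552A and 0 to 8 for Combo effect between days. MOLM13 counts ran from 0 to 4 for Combo day 2, 3 to 16 for ATRA day 4, 1 to 4 for Combo day 4, 1 to 12 for Combo against ATRA, 1 to 2 for Combo against 552A and 0 to 37 for DMSO between days. MV411 counts ran from 0 to 1 for ATRA day 2, 0 to 12 for Combo day 2, 0 to 1 for 552A day 4, 1 to 10 for ATRA day 4, 4 to 8 for Combo day 4, 1 to 19 for Combo against ATRA and 0 to 3 for Combo against 552A. OCIAML3 counts ran from 0 to 19 for 552A day 2, 2 to 32 for ATRA day 2, 1 to 27 for Combo day 2, 1 to 22 for ATRA day 4, 0 to 21 for Combo day 4 and 0 to 20 for Combo against 552A. THP1 counts ran from 0 to 17 for 552A day 2, 3 to 29 for ATRA day 2, 0 to 23 for 552A day 4, 2 to 20 for ATRA day 4 and 0 to 16 for Combo effect between days. Leaving out 1 line at a time gave these ranges. Across-line counts ran from 0 to 11 for ATRA day 2, 0 to 1 for ATRA day 4, 2 to 8 for Combo day 4 and 0 to 1 for Combo against 552A. For the named genes across lines, 655 of the values under an alternative kept their direction and side of the threshold, 9 passed it newly, 20 no longer passed it and 0 turned direction.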

Other observations

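The replication-dependent histone genes, whose transcripts build up in S phase, were listed beside the 42. Across lines at day 4 with Combo 12 of 13 were lower (median log2 fold change -0.96, edgeR, where 10.6% of all genes tested were lower), and at day 2 all 13 were (median -0.86, where 12% were). HIST1H2BK and HIST1H2AG had the smallest p at day 4 (-1.08 ± 0.28 SE, adjusted p = 0.00979, and -1.25 ± 0.33 SE, adjusted p = 0.0126). The summed level of the histone genes moved with the GC trend of single libraries. In OCIAML3 with 552A at day 2 it was 6265 and 1162 CPM at trends of 0.34 and -0.99, in Kasumi1 with Combo at day 4 1382 and 4573 at -0.67 and 0.18, in MV411 with Combo at day 4 3284 and 1429 at 0.041 and -0.73 and in THP1 with Combo at day 4 1136 and 513 at 0.25 and -0.44. The lower sum went with the lower trend in each of these 4 pairs, which were chosen after their values were seen, and the part of the trend in the histone counts was not tested. Histone genes are near-identical copies of each other, so reads may have been split or lost between them.

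Of 35 other replication genes 4 were lower and 1, MCM9, higher with Combo across lines at day 4 (0.38 ± 0.092 SE, adjusted p = 0.00704), of 27 other S-phase and E2F network genes 1 was lower and 3 higher, and of 25 mitosis genes 3 were lower, with AURKB among them (-0.86 ± 0.27 SE, adjusted p = 0.0267). None of the 7 inhibitors of cyclin-dependent kinases passed, and the 2 with the smallest p were CDKN2B (0.94 ± 0.35 SE, adjusted p = 0.0654) and CDKN2A (-1.01 ± 0.43 SE, adjusted p = 0.103). In all genes tested 10.6% were called lower in that comparison, so the lower counts of the other replication, S-phase and mitosis lists were near or below that share. The counts of higher genes have no such share beside them and are not read as a trait of the lists. In HL60 with Combo at day 4, 7 of 25 mitosis genes were higher, where 15.2% of all genes tested were, and 0 lower, where 14.3% were.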
